A study of Mus musculus with 18 samples.

Results

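Wild-type microglia of the medial prefrontal cortex (mPFC) were compared after adolescent exposure to delta-9-tetrahydrocannabinol (THC) or vehicle. The genes described are those with a value above the library's own minimum, which marks a count of 0, in at least 5 of the 10 wild-type libraries. They number 10139 of the 22428 genes of the table, and 6032 of them had a count in all 10 libraries. The series holds 18 libraries of bulk RNA-seq in 4 groups. The comparison used 4 WT-THC libraries (replicates 7, 8, 9 and 11) and 6 WT-Veh libraries (replicates 1 to 6), and the 8 libraries of mice with a duplication of the 16p11.2 region (16p11dup) shared the estimate of the spread. WT-THC mice were wild-type littermates on the C57BL6/J strain background that received THC at 8 mg/kg under the skin once a day from postnatal day 30 (P30) to P51. WT-Veh mice were wild-type littermates of the same background that received the vehicle, saline with Cremophor, on the same days. Cells of both groups were sorted at P51 as CD45+, CD11b+ and P2ry12+. No source states that each library came from 1 mouse, so p-values measure the spread between libraries, and the sex of the mice behind these libraries is not given in the sources used here. The sort on P2ry12 restricts the libraries to cells that still carry this receptor at their surface.

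THC is the main psychoactive compound of cannabis and a partial agonist of the cannabinoid receptors. These receptors couple to inhibitory G proteins, which lower cyclic AMP, and beta-arrestins desensitise them. Microglia are the resident macrophages of the brain. They survey the tissue, clear debris through phagocytosis and lysosomal digestion, and respond to ATP, cytokines and microbial ligands.

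The libraries held between 7045444 and 15459286 expected counts, with no separation of the groups. Values are given as CPM, counts per 10 to the power 6 of the scaled library size, and those of WT-THC always follow the order of replicates 7, 8, 9 and 11. Genes with a count numbered 8778 to 10966 in WT-THC and 8814 to 9537 in 5 of the WT-Veh libraries, against 12350 in WT-Veh replicate 6. The percentage of mapped reads was 72.5 to 81.8 in WT-THC and 73.7 to 79 in WT-Veh (p = 0.786, exact permutation test, two-sided). The percentages of mapped reads on exons and on introns and the total expected counts also overlapped between the groups, and the exact two-sided permutation test gave p = 0.433, p = 0.748 and p = 0.848. Counts on Rn45s, the ribosomal RNA precursor, took 7.83 to 11.6% of a WT-THC library and 9.05 to 12.2% of a WT-Veh library (p = 0.124, exact permutation test, two-sided).

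The microglial identity of the cells was examined first. The CSF1 receptor Csf1r, on which microglia depend for survival, had 6776, 6961, 7627 and 6092 CPM in WT-THC and 5252 to 9274 CPM (median 7041) in WT-Veh. It was high in every library, and the groups overlapped. The homeostatic markers Tmem119 and Sall1 and the purinergic receptor P2ry12, one of the sort markers, also had a count in all 10 libraries, with log2 fold changes of -0.04 (SE 0.24), 0.09 (SE 0.35) and 0.17 (SE 0.19). Of the other sort markers, Itgam, which encodes CD11b, gave 0.11 (SE 0.28). Ptprc, which encodes CD45, had 279, 372, 131 and 257 CPM in WT-THC against 257 to 878 CPM (median 426) in WT-Veh, and its log2 fold change was -0.65 (SE 0.37, FDR = 0.744 in limma). Siglech, a sialic acid receptor of microglia, had 1401, 1515, 1283 and 954 CPM in WT-THC against 843 to 1263 CPM (median 1038) in WT-Veh. Of these 4 values, 3 lay above the highest WT-Veh library, and the other lay inside the WT-Veh range (log2 fold change 0.35, SE 0.17, FDR = 0.744 from limma).

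Cx3cr1, the fractalkine receptor, split the libraries without regard to treatment. In WT-THC it had 2304, 3004, 3353 and 121 CPM. In WT-Veh 3 libraries held 16, 110 and 163 CPM and the other 3 held 2465, 3999 and 4093 CPM. Its log2 fold change of 1.68 (SE 1.35) therefore had a wide error (FDR = 0.744 from limma). Other protein-coding genes, 5 in number, overlap its annotated span, and reads were counted without strand. Aif1, which encodes Iba1, had 353, 299, 502 and 279.5 CPM in WT-THC and 99.8 to 426 CPM (median 292) in WT-Veh (log2 fold change 0.62, SE 0.34).

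**Figure D1:**
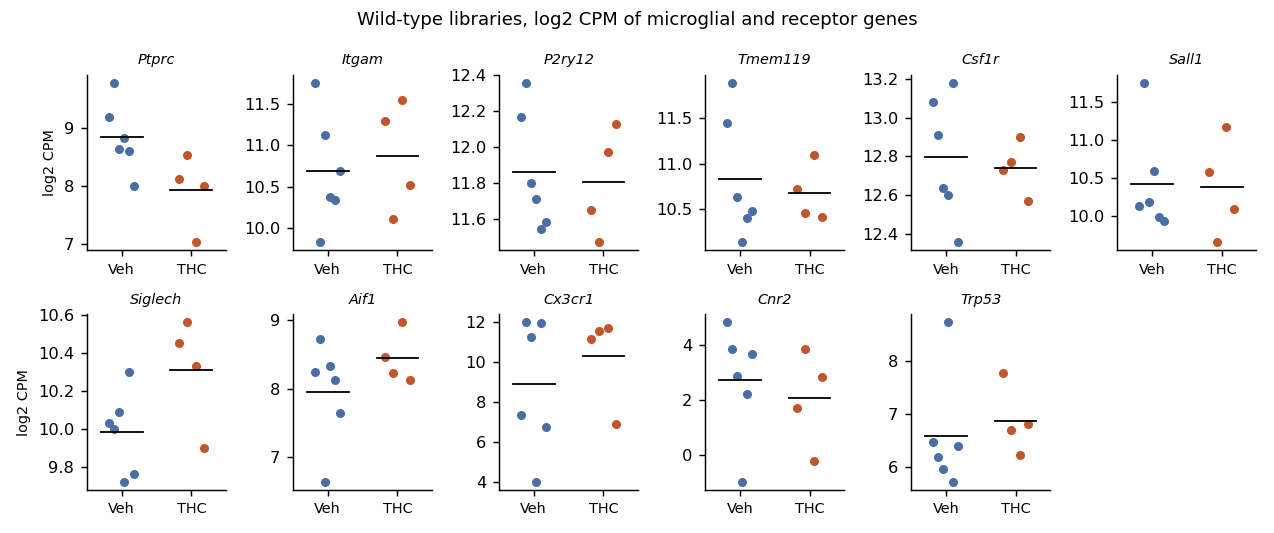
Deposited log2 CPM (y axis, linear in log2) of 11 microglial, sort-marker and receptor genes in the 6 WT-Veh and 4 WT-THC libraries, with a point for each library and a line at the group mean. The groups overlap in every panel, and Cx3cr1 lies at 16 to 163 CPM in 4 libraries and at 2304 CPM or more in the other 6.

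Markers of other cells were low. The 40 homeostatic microglia genes summed to 60297 to 100914 CPM in WT-Veh and to 68638 to 89565 CPM in WT-THC. Neuron markers summed to 25.8 to 168.1 CPM in WT-Veh and to 10 to 148.2 CPM in WT-THC, and 3 of 17, Tubb3, Nefm and Slc32a1, were at 0 in all 10 libraries. Oligodendrocyte lineage markers reached at most 194.1 CPM in WT-Veh and 85.2 CPM in WT-THC, with Olig1, Olig2 and Pdgfra among 5 of 13 at 0. Astrocyte markers reached 291.8 and 289 CPM, mostly through the glutamate transporter Slc1a3. The markers of monocytes, neutrophils and lymphocytes were at 0 in all 10 libraries for 18 of 24, and their sum was at most 13.9 CPM in WT-Veh. In WT-THC it reached 102.3 CPM in 1 library. Vessel and mural cell markers summed to 186.2 to 537.4 CPM, mostly through Bsg, with Cldn5, Pdgfrb and Vtn among 8 of 17 at 0, and border macrophage markers to 296.4 to 996.1 CPM, mostly through Stab1, with Cd163 and Clec4n at 0 of 13. None of the members among the lists of other cell types reached an unadjusted p under 0.05. In bulk libraries, fewer cells of a type and less RNA per cell cannot be told apart.

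Of the 10139 genes, 1 passed an FDR of 0.10 in the limma model, which is 0.00986%, where FDR is the p adjusted by Benjamini and Hochberg's method across the 22428 genes. At an unadjusted p under 0.05, 248 genes were higher in WT-THC (2.45%) and 221 were lower (2.18%), together 469 (4.63%). That share lies below the threshold of 0.05 itself. The rule admits a gene seen only in the 6 WT-Veh libraries but not one seen only in the 4 WT-THC libraries, so the directions were also counted over the 6032 genes with a count in all 10. Of these, 112 were higher (1.86%) and 144 lower (2.39%) at that p, and none passed the FDR threshold, the smallest FDR being 0.744. The median log2 fold change was 0.04 over all 10139 genes and 0.02 over these 6032. With edgeR and DESeq2 the median of the 6032 genes was -0.16, and of the members at an unadjusted p under 0.05 the share that was higher was 35.6% with edgeR and 32.7% with DESeq2, against 52.9% with limma.

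**Figure D2:**
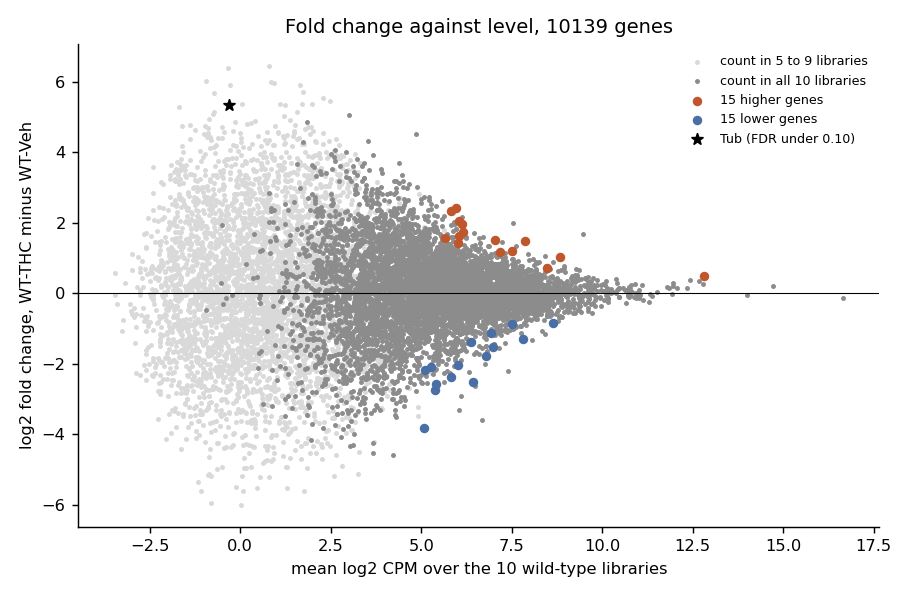
Log2 fold change of WT-THC over WT-Veh from limma (y axis) against the mean log2 CPM of the 10 wild-type libraries (x axis) for 10139 genes, with 1 point per gene. Fold changes spread widely below a mean of 5 and narrow at high levels, and Tub, the gene at FDR = 0.0583, lies among the genes of low level.

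The spread between libraries set what could be seen. Among genes with a count in all 10 libraries and a mean log2 CPM of 3 to 5, the median SD within WT-Veh was 2.19 on the log2 scale, and the median SE of the THC difference was 1.31. At a mean of 7 to 9 these were 0.81 and 0.48, and at 9 or more 0.48 and 0.28. Fold changes beyond 2-fold in either direction were held by 46.2% of the genes at a mean of 3 to 5, by 4.6% at 7 to 9 and by 0.5% at 9 or more. The 199 genes of the highest level, Csf1r among them, had a median absolute log2 fold change of 0.16.

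Tub, which encodes the founding member of the tubby-like proteins (chromosome 7, 108950338 to 109034460), was the gene that rose. It had 117, 3.22, 0.797 and 13.4 CPM in WT-THC, while 4 of the 6 WT-Veh libraries held no count and the other 2 held 0.379 and 3.56 CPM. All 4 WT-THC libraries had a count, WT-Veh replicate 6 lay above 2 of them, and WT-THC replicate 7 was the highest. Tub rose by 5.35 (SE 0.77) on the log2 scale in limma (FDR = 0.0583, p = 0.019 in the exact permutation test of the log2 CPM, two-sided). The exact test used the libraries that picked Tub. The fold change rests on low counts and on the 0.5 counts added before the log, and the antisense gene Ric3 shares part of its span. The call was lost in 9 of the 11 alternative fits that kept all 10 libraries and tested Tub, with FDR = 0.644 in edgeR, and it was lost when any of 9 of the 10 libraries was left out, WT-Veh replicate 6 being the exception. The 250 bases before the Tub transcription start in RefSeq (GRCm38.p6, chr7:109010630-109010879, plus strand) are shown because Tub is the gene that passed, and none of the 3 motifs searched (capitals below) occurs in them.
Tub: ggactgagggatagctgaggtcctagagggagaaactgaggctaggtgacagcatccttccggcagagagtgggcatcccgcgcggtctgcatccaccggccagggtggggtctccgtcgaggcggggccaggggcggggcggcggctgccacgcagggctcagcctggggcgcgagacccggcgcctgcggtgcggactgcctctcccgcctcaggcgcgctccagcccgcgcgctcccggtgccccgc
Usp53, a ubiquitin-specific peptidase family member that the study singles out, is not among the 10139 genes because it had a count in 3 WT-THC libraries and in no WT-Veh library. It stood at 0, 20.2, 17.1 and 2.74 CPM in WT-THC, and among the genes outside the rule it passed the same test (FDR = 0.0583 in limma). It also rests on few counts, 356 over the 10 libraries. Its FDR was 0.619 in edgeR and 1.81e-13 in DESeq2.

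Among genes of at least moderate level (a mean log2 CPM of 5 or more and a count in all 10 libraries), of 3335 such genes, 61 were higher and 76 lower when the unadjusted p was held under 0.05. The 15 of smallest p in each direction were taken up next. All 30 had FDR = 0.744 in limma, so none of them passed, and their values are descriptions of these libraries. They were picked by p in the same libraries, so an exact permutation test of them adds no separate support. In that test 28 of the 30 had a p under 0.05. Another annotated protein-coding gene overlaps Nrbp1, Srsf2, 9930111J21Rik1, 0610031J06Rik, Acvr2a, Atp8a1, Ergic1, Fam117b and Usp16, so the counts of these genes are uncertain. The same limit holds for Csf1r, P2ry12 and Itgam above. Below, it holds for Cpsf3, Tirap, Irf5, Ctsd, Atg9a, Bad, Ripk1, Cox6c, Ndufb8, Srebf1, Cdk4, Bub3 and Usp45, among others.

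Nrbp1, a pseudokinase, led the higher genes by size. It had 209, 152, 350 and 90.2 CPM in WT-THC and 8.91 to 62.2 CPM (median 40) in WT-Veh. Every WT-THC library lay above every WT-Veh library. The log2 fold change was 2.42 (SE 0.59), and the exact permutation test, two-sided, gave p = 0.00476, the smallest p that 4 against 6 libraries allow. Dido1, a chromatin reader first described as a death inducer, had 319, 406, 297 and 277 CPM in WT-THC and 82.5 to 193 CPM (median 137) in WT-Veh, again without overlap (log2 fold change 1.22, SE 0.39). Zcchc7, a zinc-knuckle protein of nuclear RNA surveillance, had 444, 188, 395 and 137 CPM in WT-THC and 62.8 to 109 CPM (median 82.1) in WT-Veh. Its groups did not overlap either, and the log2 fold change was 1.51 (SE 0.49). 9930111J21Rik1, which has a neighbouring paralogue and overlaps other genes so that its reads are uncertain, had 268, 1137, 357 and 417 CPM in WT-THC and 92.3 to 214 CPM (median 163) in WT-Veh.

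The splicing factor Srsf2, of the SR protein family, had 889, 841, 715 and 444 CPM in WT-THC and 269.5 to 521 CPM (median 307) in WT-Veh. Of the WT-THC libraries 3 were above all of WT-Veh, and replicate 11 lay below 2 WT-Veh libraries (log2 fold change 1.04, SE 0.27, p = 0.019, exact permutation test, two-sided). Ap2a2, the alpha subunit of the clathrin adaptor AP-2, had 152, 176, 280.4 and 96.2 CPM in WT-THC and 10.1 to 93 CPM (median 24.9) in WT-Veh. Atp8a1, a phospholipid flippase, had 551, 855, 423 and 331 CPM against 176 to 376 CPM (median 295) in WT-Veh. Ap2a2 did not overlap between groups and Atp8a1 did, with log2 fold changes of 2.34 (SE 0.78) and 0.73 (SE 0.25). Lmbrd1, a lysosomal membrane protein needed for cobalamin export, had 186, 176, 148 and 53.7 CPM in WT-THC and 26.9 to 105 CPM (median 36.7) in WT-Veh. 0610031J06Rik, now named Glmp and a glycosylated lysosomal membrane protein, had 141, 241, 168 and 122 CPM in WT-THC and 12.2 to 60.4 CPM (median 42.9) in WT-Veh, without overlap. Lmbrd1 overlapped through WT-Veh replicate 3 at 105 CPM, and the log2 fold changes were 1.42 (SE 0.48) and 2.06 (SE 0.61).

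The actin disassembly factor Wdr1 had 192, 98.1, 273 and 79.5 CPM in WT-THC and 19.8 to 72.8 CPM (median 36) in WT-Veh, without overlap (log2 fold change 1.62, SE 0.56). Acvr2a, a type II activin receptor, had 35.1, 128, 378 and 54.3 CPM in WT-THC and 14.2 to 96.2 CPM (median 30.7) in WT-Veh, with replicate 9 the highest. The small-subunit ribosomal protein gene Rps21 had a log2 fold change of 1.74 (SE 0.52), the selenoprotein gene Selt, now Selenot, 1.19 (SE 0.37), and 1810013L24Rik 1.97 (SE 0.58). Ribosomal protein genes have near-identical processed copies in the genome, so their counts are uncertain.

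Herc2, a giant HECT-type ubiquitin ligase, had the smallest p of the lower genes. It had 215, 269.8, 318 and 329 CPM in WT-THC and 379.7 to 902 CPM (median 469.5) in WT-Veh, without overlap (log2 fold change -0.83, SE 0.21). The nucleoporin Seh1l, part of the Y complex and of the GATOR2 complex, had 8.7, 24.2, 0.664 and 13.1 CPM in WT-THC and 25 to 249 CPM (median 113) in WT-Veh. It had the largest fold change of the 30, at -3.81 (SE 0.97), and its highest WT-THC library lay just below its lowest WT-Veh library. Vamp4, a SNARE of the trans-Golgi network and endosomes, had 23.9, 26.5, 3.85 and 22.1 CPM in WT-THC and 36.7 to 161 CPM (median 77.6) in WT-Veh (log2 fold change -2.09, SE 0.55), without overlap.

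Cd63, a tetraspanin of late endosomes and exosomes, had 55.5, 40.8, 35.9 and 47.3 CPM in WT-THC and 63.3 to 289 CPM (median 106) in WT-Veh. All 4 WT-THC libraries lay below WT-Veh, by a narrow margin for replicate 7, with a log2 fold change of -1.37 (SE 0.43). The forkhead repressor Foxn3 had 68.5, 9.57, 6.11 and 116 CPM in WT-THC and 136 to 469 CPM (median 161) in WT-Veh, without overlap, and a log2 fold change of -2.51 (SE 0.83). Ythdf3, a reader of N6-methyladenosine in mRNA, had 44.9, 50.6, 47.6 and 165 CPM in WT-THC and 136 to 315 CPM (median 170.5) in WT-Veh. Of the WT-THC libraries 3 lay far below WT-Veh and replicate 11 lay within it (log2 fold change -1.51, SE 0.45). Ergic1, a protein that cycles between the endoplasmic reticulum and the Golgi, had 21, 19.8, 11.8 and 24.3 CPM in WT-THC and 23.6 to 396 CPM (median 108) in WT-Veh, overlapping through WT-Veh replicate 6 and WT-THC replicate 11 (log2 fold change -2.36, SE 0.75).

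In Mau2 and Rnf180, replicates 8 and 9 of WT-THC were the lowest libraries. Mau2, which loads cohesin together with Nipbl, had 35.8, 9.67, 0.664 and 69.9 CPM in WT-THC and 32.6 to 203 CPM (median 114) in WT-Veh. Rnf180, a membrane-bound ubiquitin ligase, had 62, 3.76, 2.13 and 67.2 CPM in WT-THC and 41 to 227 CPM (median 80) in WT-Veh. Replicates 7 and 11 of both genes lay inside the WT-Veh range, and the log2 fold changes were -2.75 (SE 0.91) and -2.57 (SE 0.81). The others were Znfx1, a helicase-like protein that senses double-stranded RNA (-1.11), Tmtc3, an O-mannosyltransferase of the endoplasmic reticulum (-2.16), Usp16, a deubiquitinase of histone H2A (-2.04), Fam117b (-1.29) and the ribosomal protein genes Rps2 (-1.79) and Rps24 (-0.87), all as log2 fold changes.

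**Figure D3:**
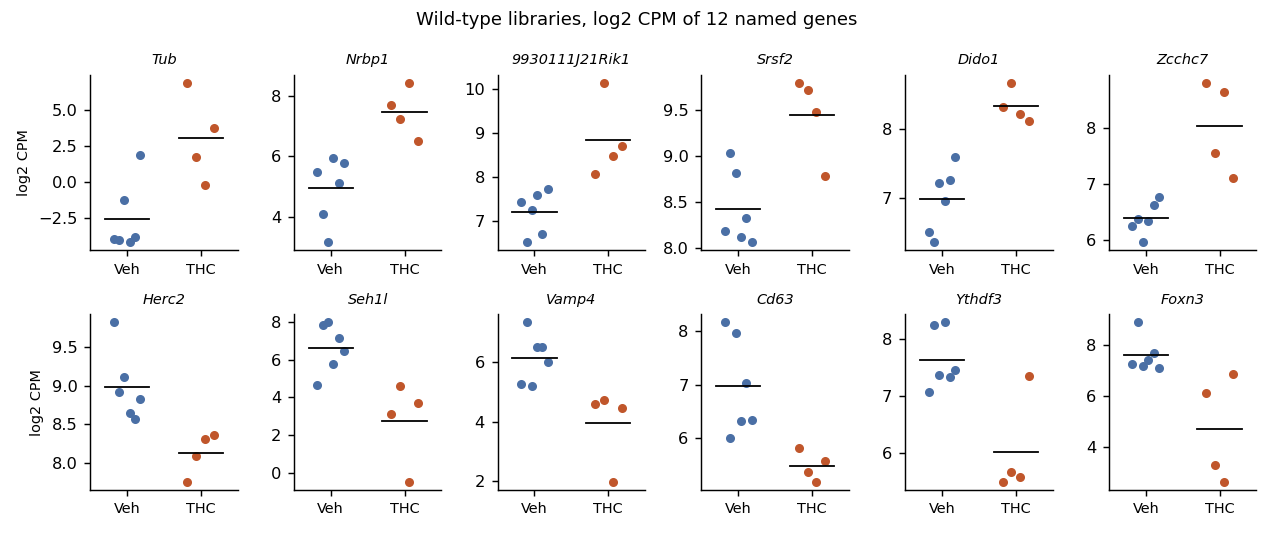
Deposited log2 CPM (y axis, linear in log2) of 12 named genes in the 6 WT-Veh and 4 WT-THC libraries, with a point for each library and a line at the group mean. Points of Tub near -4 are libraries without a count, and the groups do not overlap for Nrbp1, 9930111J21Rik1, Dido1, Zcchc7, Herc2, Seh1l, Vamp4, Cd63 and Foxn3.

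Separation of the groups was also counted directly. Of the 6032 genes with a count in all 10 libraries, 48 had groups that did not overlap (0.796%), 24 of them higher and 24 lower in WT-THC. Random labels on 4 and 6 libraries would separate a gene in a given direction with a probability of 0.00476. The 24 in each direction do not exceed that share, so the genes below are described only. By mean level the first 10 were Herc2, 9930111J21Rik1, Dido1, Rab6b, Rhog, Zcchc7, Slmap, Cpsf3, Foxn3 and Cd63. Rab6b, a GTPase of Golgi-related traffic, had 128, 7.63, 144 and 95 CPM in WT-THC and 162 to 911 CPM (median 302) in WT-Veh (log2 fold change -2.20, SE 0.78). Rhog, a small GTPase that acts in phagocytosis, had 103, 64.4, 90.3 and 73.6 CPM in WT-THC and 129 to 304 CPM (median 175) in WT-Veh (log2 fold change -1.17, SE 0.57). Both lay lower in all 4 WT-THC libraries. Slmap, a tail-anchored membrane protein, had 132, 217, 231 and 149 CPM in WT-THC and 25.6 to 129 CPM (median 77.9) in WT-Veh, and the upper edge of WT-Veh lay just below the lowest WT-THC library. Cpsf3, the endonuclease of mRNA 3' end processing, differed by -1.20 (SE 0.76) on the log2 scale, and its groups were separated although limma gave an unadjusted p = 0.137.

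Promoters of Tub and of the 30 genes of moderate level were read for 3 motifs on both strands. These motifs were read because cannabinoid receptors act on cyclic AMP and because PU.1 and AP-1 factors are active in microglia. The motifs were the cyclic AMP response element TGACGTCA, the AP-1 site TGANTCA and a PU.1 core GAGGAAGT, and the windows run from 250 bases before to 50 after each RefSeq start (GRCm38.p6). The cyclic AMP response element occurred in 1.79% of all 32851 promoters and in 3.82% of the 7744 members with a promoter. Among the 30 genes it occurred in 1 of the 12 higher genes with a promoter, Lmbrd1, just after its start, and in none of the 13 lower genes with one. The AP-1 site occurred in 7.81% of all promoters and in 5.64% of the members. Those of the 30 genes that hold it are 9930111J21Rik1, Lmbrd1, Rnf180 and, after its start, Foxn3. The PU.1 core occurred in 3.2% of all promoters, 3.84% of the members and none of the 30 genes with a promoter. A match is a description of these letters and not a bound site. The 3 windows with an AP-1 site (in capitals) upstream of the start are 9930111J21Rik1 (chr11:48979532-48979619, minus strand), Lmbrd1 (chr1:24678319-24678406, plus strand) and Rnf180 (chr13:105293103-105293190, minus strand), and they are shown because genes of both directions hold the same motif.
9930111J21Rik1: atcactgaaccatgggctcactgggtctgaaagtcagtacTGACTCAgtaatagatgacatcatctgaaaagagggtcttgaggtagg
Lmbrd1: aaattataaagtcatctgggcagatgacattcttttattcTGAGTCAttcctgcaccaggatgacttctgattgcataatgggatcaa
Rnf180: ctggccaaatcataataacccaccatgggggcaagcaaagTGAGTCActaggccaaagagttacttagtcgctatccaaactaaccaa

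The targets of THC and the enzymes of its endogenous counterparts were examined as a group. Cnr1 was not analysed here. Cnr2, the second cannabinoid receptor, was low, with 3.24, 14.4, 0.797 and 7.1 CPM in WT-THC and 0.451 to 27.9 CPM (median 9.87) in WT-Veh (log2 fold change -0.64, SE 1.43). Of 15 members of the list of cannabinoid receptors and endocannabinoid enzymes, 1 was higher and 1 lower with p (unadjusted) under 0.05, and the median log2 fold change was -0.12 (-0.61 in edgeR and -0.01 without weights). That is 13.3% of this short list, against 4.63% of all members. The lower gene was Abhd4, which acts early in a route to N-acylethanolamines such as anandamide, with 18, 2.26, 1.2 and 19.4 CPM in WT-THC and 19.5 to 312 CPM (median 30) in WT-Veh, separated by a narrow margin. The higher gene was Gde1, a phosphodiesterase of the same route, with 61.4, 156, 85.7 and 34.7 CPM in WT-THC and 0.616 to 51.2 CPM (median 8.75) in WT-Veh. Their log2 fold changes were -2.70 (SE 1.22) and 3.18 (SE 1.47), both at FDR = 0.744 in limma. The enzymes that make and break down 2-arachidonoylglycerol gave log2 fold changes of 0.58 (SE 0.50) for Daglb, -1.43 (SE 1.12) for Dagla, 0.12 (SE 0.27) for Abhd12, 0.40 (SE 0.69) for Abhd6 and -3.56 (SE 2.09) for Mgll. The errors of Dagla and Mgll were wide, so their values do not show an absence of change.

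Downstream of the receptors, 2 of 37 members of the G protein and cyclic AMP list were higher and 1 was lower at an unadjusted p under 0.05, with a median of 0.00. That is 8.11% of the list, against 4.63% of all members. Rgs19, which speeds the shut-off of inhibitory G proteins, had 58.1, 80.5, 35.2 and 78.2 CPM in WT-THC and 77.4 to 440.5 CPM (median 286) in WT-Veh. The lowest WT-Veh library lay below 2 of the WT-THC libraries and all others lay above them, with a log2 fold change of -1.44 (SE 0.48). Arrb2, which encodes beta-arrestin 2, had 438, 454, 1169 and 430.3 CPM in WT-THC and 148 to 834 CPM (median 293) in WT-Veh, and replicate 9 was the highest of the 10 libraries (log2 fold change 0.90, SE 0.37). Prkar2a, a regulatory subunit of protein kinase A, had 46.1, 44.2, 35.2 and 8.72 CPM in WT-THC and 0 to 24.8 CPM (median 3.98) in WT-Veh (log2 fold change 4.30, SE 1.81).

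Genes of microglial state had medians close to that of all genes. Of 40 homeostatic genes, all with a count in all 10 libraries, 2 were higher and none was lower at an unadjusted p under 0.05, Csf1r among them, and the median was 0.04. Csf1r had a log2 fold change of 0.28 (SE 0.10), but -0.03 without weights. Of 27 members of the disease-associated microglia list, 2 were higher and 1 lower (11.1%, against 4.63% of all members), with a median of 0.02. The lower one was Cd63, and the higher ones were the cathepsin gene Ctsd (0.35, SE 0.16, but -0.06 without WT-THC replicate 7) and the growth factor gene Csf1 (4.40, SE 1.94), which had 246, 8.28, 15 and 6.47 CPM in WT-THC and 0 to 83.9 CPM (median 0.199) in WT-Veh. The groups of Csf1 overlapped, and its log2 fold change was 0.75 in edgeR and 0.88 in DESeq2. None of the 35 members of the complement and phagocytosis list passed that p, and its median was -0.01. In the list of cytokines, chemokines and their receptors (39 members, median 0.12, -0.10 in edgeR), 2 were higher at that p, Csf1 and Il6ra. Il6ra, a subunit of the interleukin-6 receptor, had 709.7, 526, 719 and 605 CPM in WT-THC and 358 to 598 CPM (median 422) in WT-Veh, with 3 WT-THC libraries above all of WT-Veh (log2 fold change 0.60, SE 0.26).

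In innate sensing, 1 of 46 members of the Toll-like receptor and NF-kB list was higher and 1 lower, with a median of -0.04. The share was 4.35%, against 4.63% of all members. The lower one was Tirap, the adaptor that brings MyD88 to Toll-like receptors, with 0.59, 3.33, 2.52 and 4.92 CPM in WT-THC and 4.8 to 174 CPM (median 57.2) in WT-Veh. Only the lowest WT-Veh library overlapped with WT-THC, and the log2 fold change was -4.24 (SE 1.29). The higher one, the interferon regulatory factor gene Irf5, had a log2 fold change of 0.67 (SE 0.31), but 0.35 without WT-THC replicate 9, with 156, 195, 728 and 170.3 CPM in WT-THC and 111 to 260.3 CPM (median 154) in WT-Veh. Interferon-stimulated genes had a median of -0.58 (-0.74 in edgeR), with 19 of 28 members below 0, but none passed an unadjusted p under 0.05. Of all 10139 members, 4896 were below 0. Of the better measured members, log2 fold changes were -0.36 (SE 0.49) for Parp14, -0.84 (SE 0.54) for Ddx58, which encodes RIG-I, and -0.92 (SE 0.85) for Eif2ak2, which encodes PKR. Summed, the list came to 735 to 1337 CPM in WT-THC and 886 to 1611 CPM in WT-Veh. In the list of antigen presentation by MHC class I and II, 17 of 26 members were below 0 with a median of -0.25 (-0.68 in edgeR), and 1, the immunoproteasome subunit gene Psmb10, was lower at that p.

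**Figure D4:**
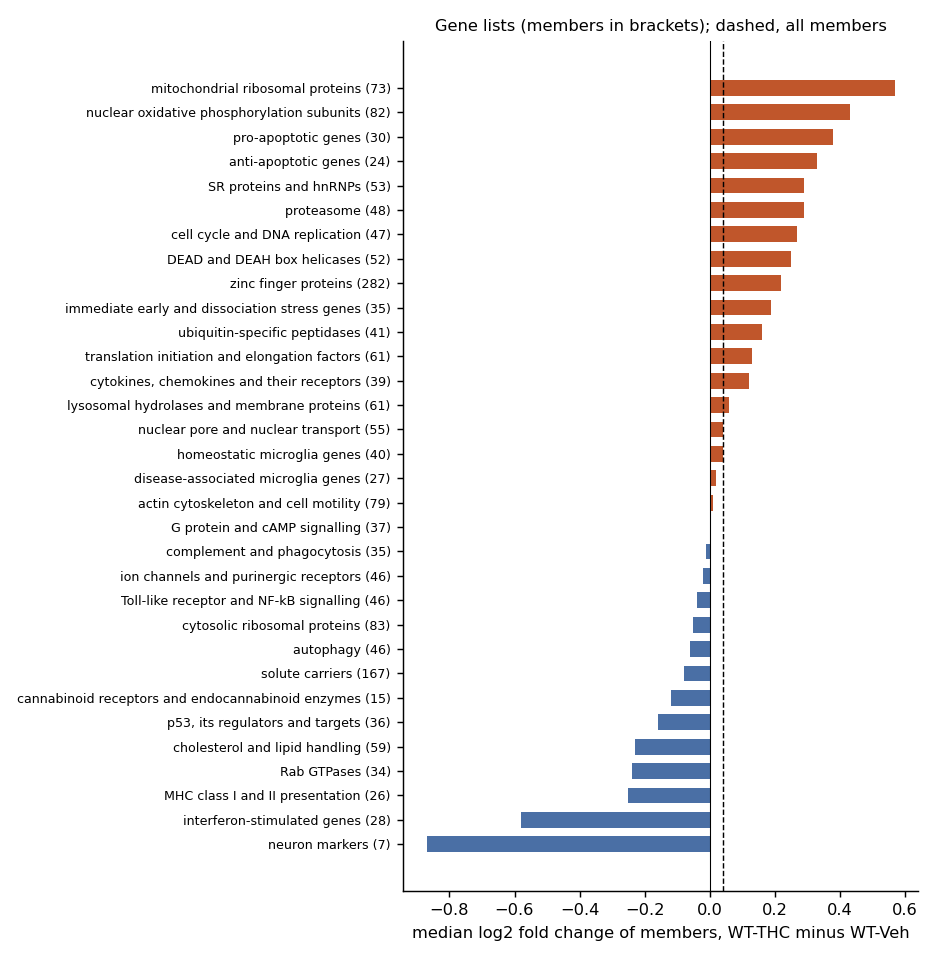
Median log2 fold change of WT-THC over WT-Veh from limma (x axis) for the 32 lists with at least 5 members, with the number of members in brackets. The dashed line is the median of all members (0.04), mitochondrial ribosomal proteins have the highest median (0.57), and the lowest medians are those of neuron markers (-0.87, 7 members) and interferon-stimulated genes (-0.58).

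Lysosomal genes numbered 61, of which 4 were higher and 1, Cd63, was lower at an unadjusted p under 0.05, with a median of 0.06 (-0.04 in edgeR). That is 8.2% of the list, against 4.63% of all members. Besides Ctsd, the higher ones included Slc17a5, the sialic acid exporter of the lysosome, with 35.8, 23.4, 9.83 and 48.5 CPM in WT-THC and 0 to 9.44 CPM (median 3.02) in WT-Veh, and Gla, which encodes alpha-galactosidase A. Slc17a5 did not overlap between the groups (log2 fold change 3.85, SE 1.19), and Gla was highest in replicates 7 and 9, at 42.8, 0.107, 47.8 and 1.55 CPM in WT-THC (log2 fold change 5.13, SE 1.96, but 1.99 without replicate 9). In autophagy, 3 of 46 members were lower and 1 higher (median -0.06, and -0.77 in edgeR). Gabarap, an ATG8-family protein of the autophagosome membrane, had 28.3, 38.6, 9.96 and 45.9 CPM in WT-THC and 55.1 to 117 CPM (median 85.7) in WT-Veh. Its groups did not overlap, and the log2 fold change was -1.63 (SE 0.68). Atg9a and Atg13 gave -3.95 (SE 1.72) and -3.57 (SE 1.62), and Atg14, a subunit of the class III PI3-kinase complex, gave 3.72 (SE 1.52).

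Apoptosis and p53 lists were examined because the study asks about microglial death. Of 30 members of the pro-apoptotic list, 3 were higher and 2 lower with p (unadjusted) under 0.05, and the median was 0.38 (0.01 in edgeR). That is 16.7% of the list, against 4.63% of all members. Of 24 members of the anti-apoptotic list, 1 was higher, Faim (4.51, SE 1.94), and none lower, with a median of 0.33 (0.05 in edgeR). Casp4, an inflammatory caspase, had 34.2, 34.7, 11.6 and 19.3 CPM in WT-THC and 0 to 23.8 CPM (median 2.67) in WT-Veh, overlapping, and gave 3.89 (SE 1.5). Bad, a BH3-only protein, gave 5.90 (SE 2.39). It had 35.5, 100.5, 40.1 and 24.2 CPM in WT-THC and 0 to 42.9 CPM (median 0.129) in WT-Veh, also overlapping. On the lower side, Ripk1, a kinase of death receptor signalling, gave -3.00 (SE 1.32), and Dffb, the caspase-activated DNase, gave -5.19 (SE 2.20). Dffb had 0, 0, 0 and 0.141 CPM in WT-THC and 0 to 43.3 CPM (median 6.7) in WT-Veh. The fold changes of Bad and Dffb rest on libraries at or near 0. Trp53 itself had 218, 104, 75.2 and 112 CPM in WT-THC and 52.9 to 424 CPM (median 79) in WT-Veh (log2 fold change 0.33, SE 0.53, but -0.20 in edgeR and -0.21 in DESeq2). In the list of p53, its regulators and targets, the median was -0.16. None of 36 members was higher and 2 were lower at that p (5.56%, against 4.63% of all members). Those were Rps27l, a target of p53 (-4.18, SE 1.5), and Mdm4, its inhibitor, with 171, 109.5, 85.7 and 127 CPM in WT-THC and 133 to 334 CPM (median 166) in WT-Veh.

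RNA processing and transport genes gave mixed values. Among SR proteins and hnRNPs, 37 of 53 members were above 0, against 5243 of all 10139. The median was 0.29, and the median of the edgeR fold changes of this list was 0.20. Of these, 2, Srsf2 and the splicing regulator Ptbp3 (0.71, SE 0.30), were higher at an unadjusted p under 0.05. At the nuclear pore, 2 of 55 members were higher and 3 lower (9.09%, against 4.63% of all members), with a median of 0.04 (-0.37 in edgeR). Besides Seh1l, the Y complex nucleoporin Nup107 was lower, with 0.147, 0.645, 0 and 2.18 CPM in WT-THC and 3.36 to 24.6 CPM (median 11.4) in WT-Veh, whereas Nup37 of the same complex had 2.95, 0.645, 3.19 and 12 CPM in WT-THC and at most 0.226 CPM in WT-Veh. Neither overlapped between the groups, and the log2 fold changes were -4.68 (SE 1.77) and 4.79 (SE 1.18). Nup153, of the nuclear basket, gave 1.11 (SE 0.43), and the importin Kpna2 gave -3.29 (SE 1.18).

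Translation and energy metabolism were examined by compartment, where of all 10139 members 5243 were above 0 and 4896 below. An unadjusted p under 0.05 was held by 4.63% of all members. Of 83 cytosolic ribosomal protein genes, 33 were above 0 and 50 below (median -0.05, and -0.15 in edgeR), and 2 of them were higher and 5 lower at that p (8.43%). Of 73 mitochondrial ribosomal protein genes, 45 were above 0 with a median of 0.57 (0.18 in edgeR), but 1 was higher and 2 lower at that p, and among the 19 with a count in all 10 libraries the median was 0.12. Mrpl20 was one of the lower ones, with 4.13, 0.107, 3.32 and 10.8 CPM in WT-THC and 4.49 to 57.6 CPM (median 27.1) in WT-Veh (log2 fold change -3.34, SE 1.20). Of 82 nuclear genes of oxidative phosphorylation, assembly factors named Ndufaf included, 53 were above 0 (median 0.43, but -0.02 in edgeR), and 1 was higher (Cox6c, 4.47, SE 1.56) and 1 lower (Ndufb8, -3.71, SE 1.32). The summed level of this list was 2606 to 4744 CPM in WT-THC and 2478 to 4907 CPM in WT-Veh. Of 48 proteasome members, 27 were above 0 (median 0.29, but -0.22 in edgeR), 1 was higher and 1 lower. The higher one, Psmd3, had 5.53, 1183, 67.1 and 14.3 CPM in WT-THC and 1.13 to 19.6 CPM (median 9.25) in WT-Veh, and its log2 fold change was 2.84 (SE 1.33), but 1.41 without WT-THC replicate 8.

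In cholesterol and lipid handling, 4 of 59 members were lower and 1 was higher at an unadjusted p under 0.05, and the median was -0.23 (-0.26 in edgeR). That is 8.47% of the list, against 4.63% of all members. The lower ones were Srebf1 and Scap, the sterol-regulated transcription factor and its escort, Stard3, a cholesterol transfer protein, and Alox5ap, which enables leukotriene synthesis. Scap had 9.21, 0.752, 50.2 and 10.5 CPM in WT-THC and 19.8 to 78.4 CPM (median 38.3) in WT-Veh (log2 fold change -2.32, SE 0.86). Alox5ap had 96.7, 111, 216 and 85 CPM in WT-THC and 131 to 576 CPM (median 222) in WT-Veh (log2 fold change -0.98, SE 0.38). In both genes 3 WT-THC libraries lay below all of WT-Veh and the other lay within it. Srebf1 and Stard3 gave -2.67 (SE 0.96) and -2.30 (SE 0.82). Stard3 had 128.3, 12.7, 0.398 and 32.3 CPM in WT-THC and 25.3 to 125.8 CPM (median 77.4) in WT-Veh. Its highest library was thus WT-THC replicate 7, against the direction of its fold change. The higher gene, Acsl1, a long-chain acyl-CoA synthetase, gave 2.20 (SE 0.85).

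Among ion channels and purinergic receptors, 2 of 46 members were higher and 2 lower, with a median of -0.02. P2rx7, the ATP-gated channel upstream of the inflammasome, had 554, 269, 523 and 389 CPM in WT-THC and 137 to 452 CPM (median 224) in WT-Veh. Itpr2, an inositol trisphosphate receptor of the endoplasmic reticulum, had 337, 327, 579 and 494 CPM in WT-THC and 124 to 331 CPM (median 246) in WT-Veh. Above all of WT-Veh lay 2 WT-THC libraries for P2rx7 and 3 for Itpr2, and the log2 fold changes were 0.89 (SE 0.33) and 0.87 (SE 0.35). P2rx1 had no count in WT-THC and 0 to 47 CPM (median 1.09) in WT-Veh, where replicate 1 was the highest, and it met the membership rule through WT-Veh only. In the cell cycle list (47 members, median 0.27, but -0.15 in edgeR), Top2a, a topoisomerase of dividing cells, had 0, 30.5, 57.8 and 13 CPM in WT-THC and at most 1.69 CPM in WT-Veh, while Cdk4 gave -4.21 (SE 1.40) and the checkpoint protein gene Bub3 3.89 (SE 1.62). Among immediate early and dissociation stress genes (35 members, median 0.19, but -0.06 in edgeR), none was lower and 2 were higher at that p, and their summed level was 5637 to 11098 CPM in WT-THC and 5722 to 9772 CPM in WT-Veh. Zfp36, which destabilises cytokine mRNAs, had 549, 328, 466 and 260 CPM in WT-THC and 109 to 358 CPM (median 204) in WT-Veh (log2 fold change 0.95, SE 0.42), and the transcription factor gene Egr2 gave 3.24 (SE 1.18).

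Gene families were counted in the same way, beside 4.63% of all members at an unadjusted p under 0.05. Among ubiquitin-specific peptidases, 3 of 41 members were higher and 1, Usp16, was lower (median 0.16, and 0.13 in edgeR). The higher ones were Usp1, which deubiquitinates FANCD2 (3.45, SE 1.44), Usp45 (2.38, SE 0.98) and Usp54, which had 31.6, 69.9, 48.5 and 45.9 CPM in WT-THC and 0 to 20.9 CPM (median 2.07) in WT-Veh without overlap. Among zinc finger proteins 10 of 282 were higher and 4 lower, and the median was 0.22, but -0.21 in edgeR. Among solute carriers 4 of 167 were higher and 2 lower (median -0.08), and Slc7a1, a transporter of cationic amino acids, had 1.18, 64.8, 196 and 14.8 CPM in WT-THC and at most 11.1 CPM in WT-Veh. Of 34 Rab GTPases none was higher and 2, Rab6b and Rab39 (-1.70, SE 0.75), were lower (median -0.24). Rab39 had 177.5, 5.91, 2.79 and 36.3 CPM in WT-THC and 45.2 to 129.6 CPM (median 61.2) in WT-Veh. WT-THC replicate 7 was thus its highest library. Of 61 translation initiation and elongation factors 2 were higher and 1 lower (median 0.13, but -0.01 in edgeR), among them Eif2ak4, which encodes the amino acid sensor GCN2 (2.21, SE 0.96). Of 52 DEAD and DEAH box helicases 1 was higher, and of 79 genes of the actin cytoskeleton and cell motility 1 was higher, Hmha1, now Arhgap45 (0.76, SE 0.35).

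The same exposure was given to 16p11dup mice, and that comparison of 4 against 4 libraries shares no library with the wild-type one. Of the 469 members at an unadjusted p under 0.05 in wild type, 215 (45.8%) had the same sign in 16p11dup, against 4963 of all 10139 members (48.9%). Of the 30 genes of moderate level, 18 had the same sign, 10 of 15 higher and 8 of 15 lower. No member passed an FDR of 0.10 for the interaction of THC and genotype in limma, and 550 (5.42%) had an unadjusted p under 0.05 for it. 9930111J21Rik1 had a log2 fold change of 1.26 (SE 0.45) in 16p11dup, beside 1.47 in wild type. Seh1l gave 2.99 (SE 1.12) in 16p11dup and an interaction of 6.79 (SE 1.5, unadjusted p = 0.000408). Rnf180 gave 2.47 (SE 0.93) in 16p11dup and an interaction of 5.03 (SE 1.25, unadjusted p = 0.00112). For Tub the log2 fold change in 16p11dup was 0.98 (SE 0.88), with an interaction of -4.37 (SE 1.18, unadjusted p = 0.00216), and these interactions did not pass the FDR threshold. The wild-type difference that picked these genes enters the interaction, so the choice itself favours a small interaction p. Of the 30 genes, 13 had an unadjusted p under 0.05 for it in limma, against 5.42% of members.

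**Figure D5:**
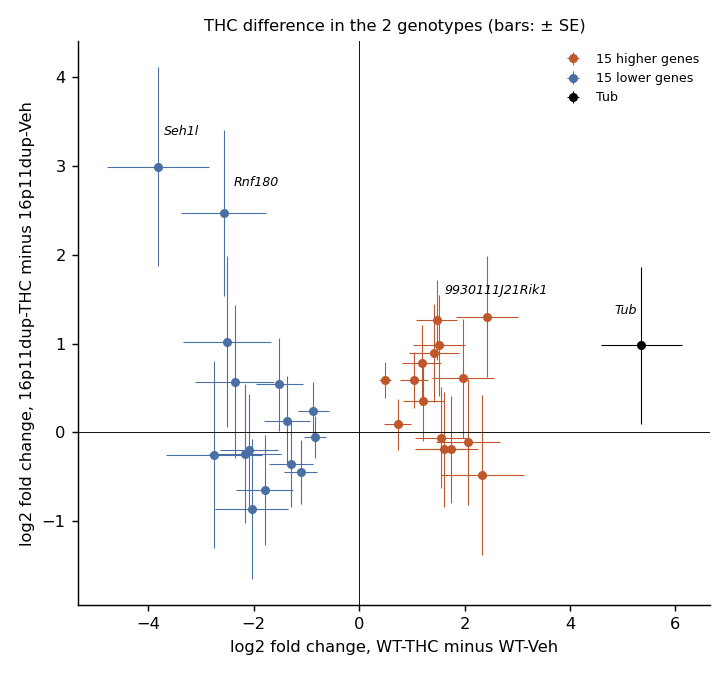
Log2 fold change of THC over vehicle in 16p11dup (y axis) against that in wild type (x axis) for Tub and the 30 genes of moderate level, with bars of 1 SE. The wild-type values chose the genes, 10 of the 15 higher and 8 of the 15 lower genes keep their sign in 16p11dup, and Seh1l and Rnf180 lie on opposite sides of 0.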

How the data were processed

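Libraries of FACS-isolated mPFC microglia were made with a low-input Nugen Ovation kit per the labels and the study's methods, whereas its results name Smart-seq2. The authors aligned reads to GRCm38 and obtained expected counts per gene with RSEM 1.3.0 and STAR, without using the strand, and left out outlier libraries, which were not analysed here. The log2 values deposited by the authors are log2 CPM after the addition of 0.5 counts, relative to library sizes that had been multiplied by 0.735 to 1.305. Expected counts were recovered from them in steps of 0.01, and 94.3% of the non-zero ones were whole within 0.005. Counts of reads, and the fraction of mapped, exonic and intronic reads, were deposited by the authors per library, as were 5 surrogate variable scores.

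Groups were compared in limma 3.58.1 over 18 libraries with voom weights, computed without the design, and the percentage of mapped reads as covariate, two-sided, with Benjamini-Hochberg adjustment over 22428 genes and a threshold of 0.10. Single genes were tested by exact permutation of the 10 wild-type libraries (210 arrangements, smallest p 0.00476). The members and gene lists were chosen with earlier results of these data known. Named genes are members at FDR under 0.10, the 15 of smallest p in each direction among those at p under 0.05 that were counted in all 10 libraries and averaged 5 or more in log2 CPM, list members at p under 0.05 (at most 5 per list), fixed markers, and the 10 of highest mean among genes whose groups did not overlap. Some genes that the rule selects, 1 of the 15 higher genes among them, are not reported here except within counts, and interferon-stimulated and 2-arachidonoylglycerol enzyme genes were named after their values were seen. Of the list symbols, 11 were matched through RefSeq synonyms. Recovered counts, rounded to whole numbers, were also tested with edgeR 4.0.16 and DESeq2 1.42.0. Other weights, scalings, filters, covariates, offsets and left-out libraries were tried. The 3 tools were also run on simulated counts, with changes placed only on genes at a log2 CPM of 5 or more. The outcome is not given here, and it does not bear on genes of low level such as Tub. Coordinates are from GENCODE M21 (GRCm38) and promoters from RefSeq (GRCm38.p6). The software was R 4.3.3 and Python 3.11.15, with pandas 2.3.3, numpy 2.4.6 and, for plots, matplotlib 3.10.9.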

Additional observations from a re-analysis of the deposited data

Results flagged for a closer look

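In each group the highest or lowest library was compared with the others for 80 named genes with a count in all 10 wild-type libraries and for 8 library measures, by Dixon's gap over range. The ratio was taken on log2 CPM for genes and on the measure itself for libraries. Gene values below are in CPM, so the ratio cannot be read from them directly. Of 176 such comparisons, 17 had a library apart, and chance gives about 1 in 20.

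In WT-THC, Cx3cr1 stood at 121 CPM in replicate 11 against 2304 to 3353 CPM in the others. Replicate 11 also held Ythdf3 at 165 CPM against 44.9 to 50.6 CPM. Replicate 9 was apart for Vamp4 (3.85 CPM against 22.1 to 26.5), Arrb2 (1169 CPM against 430.3 to 454), Irf5 (727.5 CPM against 156 to 195) and Cpsf3 (16.6 CPM against 60.1 to 73.8). Replicate 8 had Rab6b at 7.63 CPM against 95 to 144.5 CPM, and 3.5% of its counts fell on Malat1, against 2.73 to 2.78% in the other WT-THC libraries.

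In WT-Veh, replicate 2 stood apart for Sall1 (3459 CPM against 975 to 1540) and Foxn3 (469 CPM against 136 to 204). Replicate 3 was apart for Lmbrd1 (105 CPM against 26.9 to 44.7) and Mrps30 (0.0948 CPM against 3.96 to 26.2). Replicate 4 held Trp53 at 424.5 CPM against 52.9 to 88.9 CPM. Replicate 5 had Abhd4 at 312 CPM against 19.5 to 44.4 CPM and Slmap at 25.6 CPM against 71.9 to 129 CPM. Replicate 6 had 12350 genes with a count against 8814 to 9537, and Mrpl20 at 4.49 CPM against 23.5 to 57.6 CPM.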

How the results depend on the processing

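Members passing an FDR of 0.10 were 1 higher and 0 lower in limma. The higher count was 0 with 5 surrogate variables, no covariate, no weights, an offset of 2 counts, plain library size or the genes of the rule only, and 88 with DESeq2, and ranged from 0 to 2 when libraries were left out. The lower count was 224 with DESeq2 and 1, Malat1, with the genes of the rule only. Malat1 was called higher with the 10 wild-type libraries only, without WT-THC replicate 9 and without WT-Veh replicate 4. Its direction thus depended on the setting. With edgeR 1 member passed, Psmd3 in place of Tub. Members at an unadjusted p under 0.05 numbered 248 higher and 221 lower, and the lower count was 628 with DESeq2. Without 1 library the higher count ranged from 168 (without WT-THC replicate 9) to 412 (without WT-Veh replicate 6) and the lower from 147 (without WT-THC replicate 9) to 378 (without WT-THC replicate 11). Over genes with a count in all 10 libraries, 112 were higher and 144 lower. The higher count was 175 with weights computed with the design, which also made 61.3% of the members at that p higher, against 52.9%, and the lower count was 325 with DESeq2 and 93 with the genes of the rule only. Without 1 library these counts ranged from 70 to 177 and from 98 to 216.

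The log2 fold change of Tub was 5.35. It did not pass the FDR threshold with the 10 wild-type libraries only (5.16), 5 surrogate variables (5.14), DESeq2 (5.05), edgeR (5.08), the genes of the rule only (5.26), no covariate (5.54), no weights (5.24), an offset of 2 counts (3.95) or plain library size (5.38), and without 1 library it ranged from 4.99 to 5.78. Of the 30 genes of moderate level, 25 passed with DESeq2 and none with another setting. Those of them described in the text kept their direction in all settings run. Csf1r was -0.04 with DESeq2, -0.04 with edgeR and -0.03 without weights, and from -0.10 to 0.42 without 1 library, and Ctsd ranged from -0.06 to 0.69. Of the 32 list medians, 14 had the other sign in edgeR, and that of autophagy moved to -0.77. No member passed for the interaction in limma, and 12 did in edgeR. The cause of these differences was not tested. No paired analysis was possible because the 2 groups share no replicate numbers.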
